A study of Homo sapiens with 6 samples.

Results

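The tissue kallikreins KLK5 to KLK14 are 10 neighbouring genes on chromosome 19 that were taken by name from the deposited tables of MDA-MB-468 breast cancer cells. Counts were used for 9 of the 10, among 31122 genes in the count table, and KLK12 was analysed by FPKM only. MDA-MB-468 is an established triple-negative, basal-like line. One group was 3 libraries of the unedited parental line, labelled WT and grown as parallel wells of 1 plate. The other was 3 libraries labelled GPR52 KO, from populations titled 11, 12 and OG (here KO-labelled 1, 2 and 3) derived by CRISPR-Cas9 editing with a single guide to GPR52, a receptor without a known natural ligand that couples to cAMP. It is not stated whether these populations are clones or pools, and no library of unedited cells taken through the same selection was analysed here. GPR52 itself had 9, 1 and 0 counts in the parental libraries and 645, 694 and 724 counts in the KO-labelled ones, opposite to what the label implies for the transcript. Directions given here therefore refer to the KO-labelled libraries as labelled, whatever their GPR52 state. Total counts were 25637794 to 31692454 per library, and 17420 genes had enough counts to be tested. The epithelial markers EPCAM (394 ± 2.78 CPM, counts scaled to library size, in the parental group) and EGFR (5114 ± 220 CPM) were present as the cell line label implies. All 10 listed epithelial markers were tested. In the KO-labelled libraries 3 were higher, 3 lower and 4 not called (edgeR adjusted p under 0.05). Over all tested genes 21.0% were higher and 19.8% lower. EPCAM (541 ± 44.0 CPM in the KO-labelled group), KRT5 and KRT14 were higher, and CDH1, KRT7 and KRT18 were lower. EGFR was not called (5931 ± 2065 CPM in the KO-labelled group). Values after ± are SDs across the 3 libraries in each group. The p-values measure the spread between these libraries, which may be technical. The edgeR test takes 1 spread per gene for both groups, though the parental libraries are wells of 1 plate and the KO-labelled ones are separately titled populations.

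Tissue kallikreins are secreted serine proteases that are made as inactive precursors and are switched on when another protease removes a short leading peptide. In skin they act as a cascade in which KLK5 can activate itself and other members, and KLK5, KLK7 and KLK14 cut the desmosomal proteins that hold the outermost cells together. The inhibitor LEKTI, the product of SPINK5, restrains them there. In breast tissue KLK10 is known as NES1, a gene first described for its loss in breast cancer cells. In the GENCODE 29 annotation of GRCh38 all 10 genes lie on the minus strand within 140.9 kb, chr19:50943303-51084245, and the deposited tables, made with the earlier build hg19, carry no positions.

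Windows before the annotated gene starts are shown first, because the question was whether neighbouring genes moved together and 4 members that passed the test had such a sequence in the RefSeq table (GRCh38.p14). Of the 10 members 9 were matched, with 16 starts, and KLK8 is not shown. Each line below gives the longest stretch, within the 250 bases before a listed start, that touches no annotated exon on the minus strand. The stretches of KLK5, KLK6, KLK7 and KLK10 end 55, 82, 35 and 55 bases before that start, so the bases nearest to it are not shown. The KLK10 stretch lies inside the KLK10 gene as drawn in GENCODE 29 (chr19:51012739-51020175). Those of KLK5, KLK6 and KLK7 lie before the GENCODE 29 start of their gene, so the KLK10 line is not of the same kind. Each line is written 5′ to 3′ on the minus strand, with the GC box GGGCGG or its reverse complement CCGCCC in capitals. The full KLK6 window held 3 GC boxes, of which its line shows 1.
KLK5 chr19:50953094-50953288: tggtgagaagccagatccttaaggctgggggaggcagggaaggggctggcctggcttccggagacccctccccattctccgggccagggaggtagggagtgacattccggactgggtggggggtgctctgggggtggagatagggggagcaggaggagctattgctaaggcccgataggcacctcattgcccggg
KLK6 chr19:50969674-50969841: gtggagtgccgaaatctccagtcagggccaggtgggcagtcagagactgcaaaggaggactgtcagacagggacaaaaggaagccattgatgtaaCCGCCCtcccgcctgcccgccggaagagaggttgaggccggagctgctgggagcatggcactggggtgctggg
KLK7 chr19:50984100-50984314: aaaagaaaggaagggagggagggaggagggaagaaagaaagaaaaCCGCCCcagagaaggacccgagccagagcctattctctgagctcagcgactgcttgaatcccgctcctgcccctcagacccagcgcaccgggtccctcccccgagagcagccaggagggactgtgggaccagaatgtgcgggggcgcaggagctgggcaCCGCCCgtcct
KLK10 chr19:51019765-51019819: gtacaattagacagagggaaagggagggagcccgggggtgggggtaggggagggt
Over the full windows of 250 bases, the GC box was found in KLK6 and KLK7, and in KLK9, KLK11, KLK13 and KLK14, but not at any listed start of KLK5, KLK10 or KLK12. It was present in 42.6% of all 35116 windows in the table. The other motifs searched on both strands were TATAAA (in 10.7% of all windows), TGANTCA (6.57%), TGACGTCA (1.65%), AGAACA (12.4%) and AGGTCA (12.1%). None of the 16 member windows held any of these, apart from 1 AGGTCA in KLK13. In these windows no match of one motif shared bases with a match of another, but adjoining GC box matches in KLK13 shared bases. KLK5, lower in the KO-labelled libraries, and KLK10, higher in them, both lacked every motif searched. Since KLK10 was the only member called higher and KLK8 had no window, these motifs cannot show whether higher and lower members differ.

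Levels within the family spanned several orders of magnitude, and the authors' FPKM values, which are scaled by transcript length and library size, allow the members to be compared. In the parental libraries KLK5 led with 679 ± 26.8 FPKM (n = 3), followed by KLK6 with 90.2 ± 0.144 FPKM and KLK8 with 62.1 ± 6.04 FPKM. KLK9 (5.94 ± 0.509 FPKM), KLK10 (3.20 ± 0.450 FPKM) and KLK7 (2.47 ± 0.277 FPKM) formed a middle range, and the FPKM ranges of these 6 genes did not overlap each other. The places of KLK8 and KLK9 in this order rest on FPKM values that the counts do not match in scale, as described further on, and KLK9 had 14 counts in the 3 parental libraries together. KLK14 stood at 0.224 ± 0.0367 FPKM, and KLK11, KLK12 and KLK13 were at or below 0.0483 FPKM in each parental library with overlapping ranges. By counts, the KLK5 level was at percentile 99.7 of all tested genes. In the KO-labelled libraries the order of the members from KLK5 down to KLK14 was the same except that KLK10, with 19.5 ± 4.96 FPKM, stood above KLK9, with 5.18 ± 1.47 FPKM, and its range of 13.8 to 23.05 FPKM overlapped that of KLK8, 18.9 to 33.1 FPKM.

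**Figure D1:**
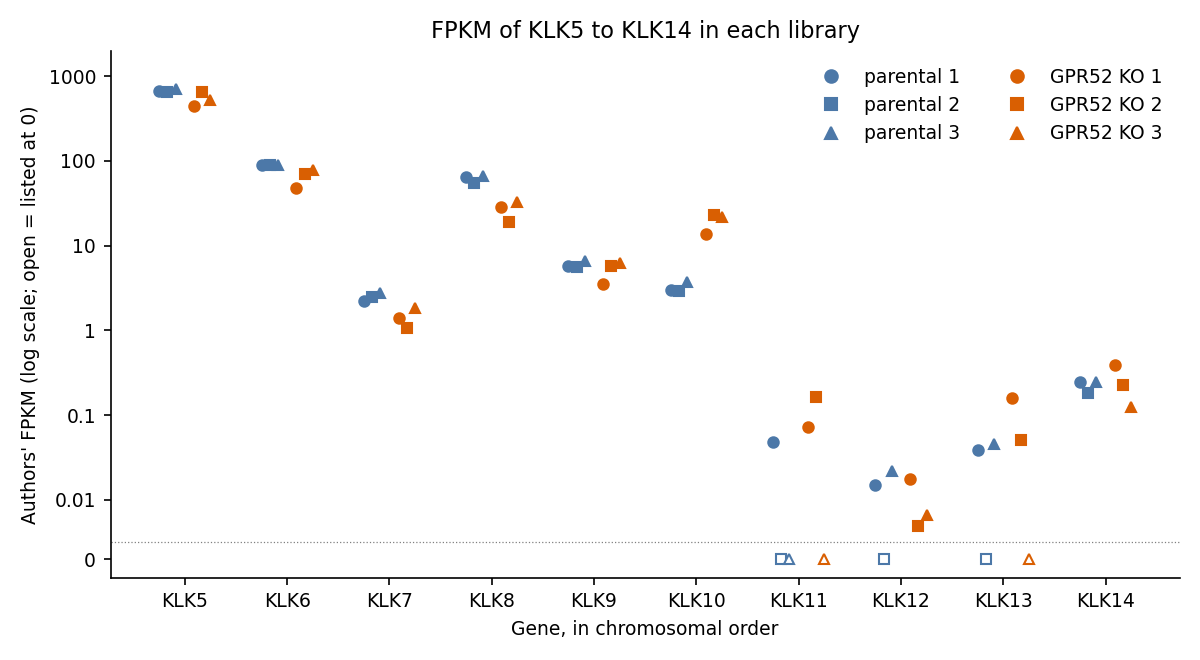
Authors' FPKM (log axis, with values listed at 0 drawn as open symbols below the dotted line) of the 10 genes in chromosomal order, 1 point per library, 3 parental and 3 KO-labelled. KLK5 was the highest member in all 6 libraries, and KLK10 was the member whose KO-labelled points, 13.8 to 23.05 FPKM, all lay above its parental ones, 2.91 to 3.72 FPKM.

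KLK10 rose about 6-fold, while KLK5, KLK6, KLK7 and KLK8 fell and KLK14 did not pass the test. The genes on either side of KLK10, KLK9 and KLK11, were too low in counts to be tested. Of the 9 genes analysed by counts, 6 passed the filter on low counts. Of these 1 was higher, 4 were lower and 1 was not called (edgeR quasi-likelihood test over all 17420 genes, adjusted p under 0.05). Over all tested genes 40.8% were called, 21.0% higher and 19.8% lower. In 5 of the 6 tested members the groups did not overlap, 1 higher and 4 lower. Over all tested genes this held for 54.4%, 27.4% higher and 27.1% lower. The median log2 fold change was -0.45 over the 6 tested members and 0.01 over all tested genes. With RNA from whole cultures, fewer cells that express a gene and less RNA per cell cannot be told apart.

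The rise concerned KLK10, a family member described above as NES1. Its level was 5.31, 5.24 and 6.53 CPM in the parental libraries and 24.3, 40.4 and 37.8 CPM in the KO-labelled ones. The lowest KO-labelled library, KO-labelled 1, was still well above the highest parental one. The ratio of the group means was 6.00, or 2.58 on the log2 scale (SE 0.21, edgeR adjusted p = 6.6e-05). In absolute size this change was at percentile 97.3 of all tested genes. It was called with each library left out in turn, at log2 fold changes of 2.44 to 2.77, and the authors' FPKM gave a ratio of 6.08.

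The protease at the head of the skin cascade, KLK5, went the other way by a smaller amount. It had 1099, 1111 and 1159 CPM in the parental libraries and 711, 1040 and 832 CPM in the KO-labelled ones. All 3 KO-labelled libraries were lower than all parental ones, KO-labelled 2 only narrowly. The difference was -0.38 on the log2 scale (SE 0.13, edgeR adjusted p = 0.0426). This call was lost without any 1 of the parental libraries (adjusted p of 0.0947, 0.0991 and 0.121 without parental 1, 2 and 3), without KO-labelled 1 (0.0740), and in the limma test on log2(FPKM + 1) (0.0731). It was also lost with upper-quartile scaling (edgeR adjusted p of 0.0621) or with library totals alone (0.0592), so the direction was steady and the call was not.

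KLK6, a trypsin-like protease also known as neurosin for its expression in the nervous system, had 153, 157 and 153 CPM in the parental libraries and 78.9, 116 and 129 CPM in the KO-labelled ones. The parental libraries lay close together, and KO-labelled 1 was the lowest of the 6. The difference was -0.51 on the log2 scale (SE 0.16, edgeR adjusted p = 0.0346). It was -0.33 without KO-labelled 1, with the call kept. The call was lost without parental 1, 2 or 3 (edgeR adjusted p of 0.0852, 0.0929 and 0.0910), without KO-labelled 2 (0.0608) and in limma on log2(FPKM + 1) (0.0523).

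KLK7, the chymotrypsin-like member of the skin cascade, was low in this line. It had 4.36, 4.85 and 5.79 CPM in the parental libraries and 2.68, 2.23 and 3.64 CPM in the KO-labelled ones. The groups did not overlap, and KO-labelled 3 was the nearest to the parental range. The difference was -0.81 on the log2 scale (SE 0.21, edgeR adjusted p = 0.0157), and the call was lost without parental 3, with an adjusted p of 0.0673.

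KLK8, also called neuropsin, fell the most of the 4 lower members. Its level was 13.4, 13.8 and 13.7 CPM in the parental libraries and 6.18, 6.79 and 6.93 CPM in the KO-labelled ones. The groups were far apart, and the ratio of the group means was 0.486. The difference was -1.04 on the log2 scale (SE 0.10, edgeR adjusted p = 1.6e-04), and the call was kept in all 16 alternative settings. The FPKM values, 63.8, 55.4 and 67.0 against 28.4, 18.9 and 33.1, also did not overlap and gave a ratio of 0.432, with a wider spread in the KO-labelled group (26.8 ± 7.20 FPKM) than the counts had (6.63 ± 0.398 CPM).

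The remaining members were not called or, apart from KLK12, were too low in counts to be tested. KLK12 was analysed by FPKM only. KLK14, another trypsin-like protease of the skin cascade, had 10, 8 and 15 counts in the parental libraries and 17, 11 and 7 in the KO-labelled ones, so the groups overlapped, with a log2 fold change of 0.15 (SE 0.40, edgeR adjusted p of 0.790). KLK9 had 5, 5 and 4 counts against 4, 5 and 3, a ratio of 0.896 with a 95% exact binomial interval of 0.379 to 2.09, which covers counting error only. KLK13 had 3 counts in all in each group. KLK11 had 0 counts in the parental group, which allows up to 0.0347 CPM (3 counts over the group), and 2 counts in the KO-labelled group. That bound takes the counts as complete, while KLK11 was listed at 0.0483 FPKM in parental 1 with 0 counts. KLK12 was listed at no more than 0.0219 FPKM in any library.

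KLK8 and KLK9 need care, because their counts and FPKM values disagreed in scale. Dividing mean CPM by mean FPKM over the 6 libraries gave 1.63 for KLK5, 1.69 for KLK6, 1.76 for KLK10 and 2.003 for KLK7, near the median of 2.15 over 17363 tested genes. The same quotient was 0.228 for KLK8, at percentile 3.58, and 0.0278 for KLK9, at percentile 0.340. KLK14 was at 1.71, KLK13 at 0.700 and KLK11 at 0.257, the last 2 resting on 6 and 2 counts over all libraries. KLK8 and KLK9 thus had few counts relative to FPKM. The quotient of KLK11 was close to that of KLK8, but with 2 counts it cannot show whether other members shared this. In GENCODE 29 a further protein-coding gene model on the same strand, AC011473.4, covers 99.8% of KLK8 and 99.2% of KLK9, and an antisense model on the other strand covers both genes and KLK7 completely. Whether such overlaps affected the counting was not tested, and the levels of KLK8 and KLK9 are therefore uncertain in both tables. In a limma test on log2(FPKM + 0.1) that kept genes with at least 0.1 FPKM in 3 libraries, KLK9 had a log2 fold change of -0.23 and an adjusted p of 0.468.

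**Figure D2:**
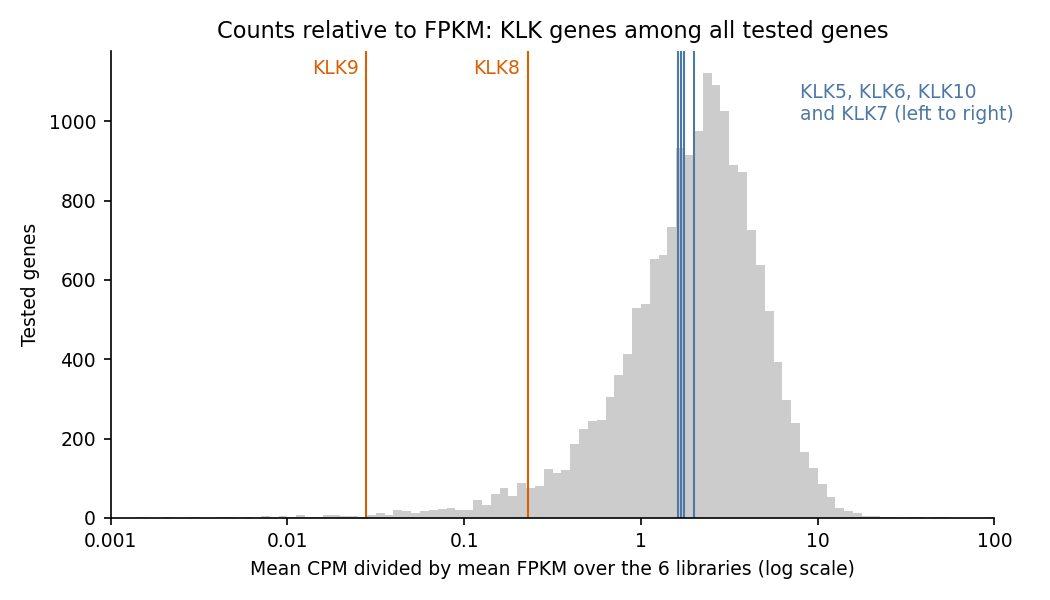
Histogram, over tested genes, of mean CPM divided by mean FPKM (log axis), with vertical lines for 6 KLK genes. KLK5, KLK6, KLK10 and KLK7 lie between 1.63 and 2.003, near the median of 2.15, while KLK8 (0.228) and KLK9 (0.0278) lie in the low tail.

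Whether the neighbours moved together was then read from the order of the genes along the chromosome, taken from RefSeq for 14732 (84.6%) of the tested genes. KLK5, KLK6, KLK7 and KLK8 formed a run of 4 consecutive tested genes called lower, and KLK10, the next tested gene, was called higher. Among the 4 adjacent pairs of tested KLK genes in which both were called, 3 pairs had the same direction (75.0%). Over all ordered genes 2414 of 3169 such adjacent pairs had the same direction (76.2%), so the share within the cluster was near that of neighbouring genes in general. Runs of at least 4 consecutive genes called lower occurred 128 times and held 700 of the 14732 ordered genes.

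The genes around the cluster were not lower. Of the nearest 5 tested genes before KLK5, 4 were called higher and none lower, and of the nearest 5 after KLK14, 1 was called higher and none lower (edgeR quasi-likelihood test). The shares over all tested genes were 21.0% called higher and 19.8% called lower. C19orf48, the tested gene next to KLK5, went from 48.7 ± 2.52 to 74.5 ± 9.03 CPM (log2 fold change 0.61, SE 0.10, edgeR adjusted p = 0.00198). On the other side CTU1, which takes part in the modification of transfer RNA, had 2.33 ± 0.128 and 2.28 ± 0.310 CPM and was not called. The lower calls on this stretch were those of KLK5 to KLK8.

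**Figure D3:**
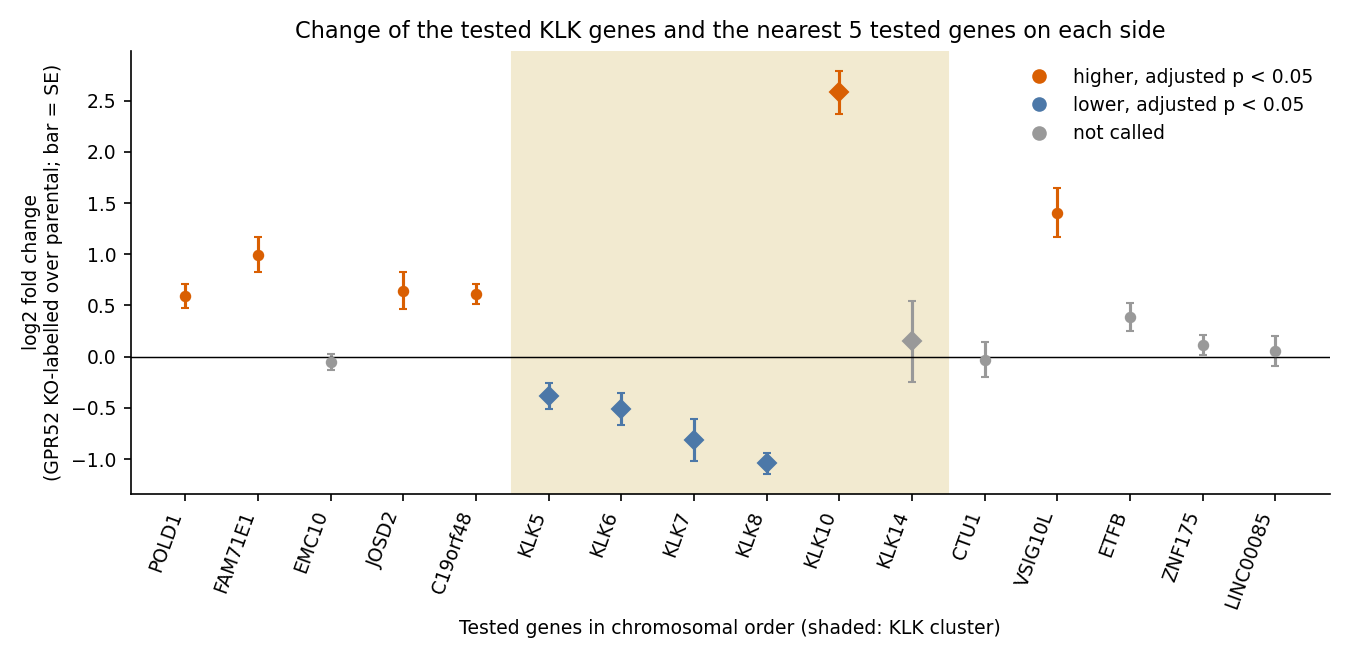
log2 fold change of KO-labelled over parental libraries, with its SE as the bar, for the 6 tested KLK genes (diamonds, shaded) and the nearest 5 tested genes on each side (circles), in chromosomal order. KLK5 to KLK8 lie between -0.38 and -1.04, KLK10 is at 2.58, and none of the 10 flanking genes was called lower.

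Ratios between members within a library, in which library size largely cancels, moved most for the pairs with KLK10. They were taken from log2 CPM with a prior count of 2, which shrinks the ratios to the low-count KLK14. On the log2 scale the KLK8 level minus the KLK10 level was 1.26 ± 0.17 in the parental libraries and -2.32 ± 0.31 in the KO-labelled ones, a change of sign with no overlap. KLK5 minus KLK10 went from 7.61 ± 0.14 to 4.67 ± 0.20. KLK5 minus KLK6, by contrast, was 2.87 ± 0.05 and 3.01 ± 0.28, with overlapping groups, a shift of 0.14. The other members did not all keep their ratios, since KLK8 fell by more than KLK5 and KLK6 did. KLK5 minus KLK8 went from 6.36 ± 0.04 to 6.99 ± 0.22, and KLK6 minus KLK8 from 3.49 ± 0.02 to 3.98 ± 0.29, both without overlap. All 5 pairs that include KLK10 reached the exact two-sided permutation p of 0.1, the smallest that 3 against 3 libraries can give, as did 8 of the 15 pairs in all, and the smallest adjusted p was 0.188. With 3 against 3 libraries this permutation test cannot reach a p below 0.05.

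The members also differed in how the 3 KO-labelled populations were ordered. KO-labelled 1 was the lowest KO-labelled library for KLK5, KLK6, KLK8 and KLK10, KO-labelled 2 for KLK7 and KO-labelled 3 for KLK14. Over all tested genes KO-labelled 1 was the lowest in 31.0%. On the log2 scale the KO-labelled range was 0.55 for KLK5, 0.71 for KLK6, 0.69 for KLK7 and 0.73 for KLK10, against 0.16 for KLK8. The parental range of the same genes was 0.08, 0.04, 0.40, 0.31 and 0.05 in that order (KLK5, KLK6, KLK7, KLK10, KLK8), narrower in each case. By counts the KO-labelled populations thus spread more widely than the parental wells in all 5 genes, KLK8 included, whose range was the smallest of the KO-labelled ranges. The same held for KLK14, with a range of 1.15 in the KO-labelled and 0.51 in the parental libraries. How often this held over all tested genes was not determined, so it is not shown to be particular to these genes. By FPKM, KLK8 was not so even across the populations, at 28.4, 18.9 and 33.1 FPKM. These spreads were not tested. Without KO-labelled 3, which was the lowest of the 3 populations in 40.0% of tested genes, the log2 fold changes of KLK5, KLK6, KLK7, KLK8 and KLK10 were -0.36, -0.66, -1.03, -1.07 and 2.50, and all 5 calls were kept.

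**Figure D4:**
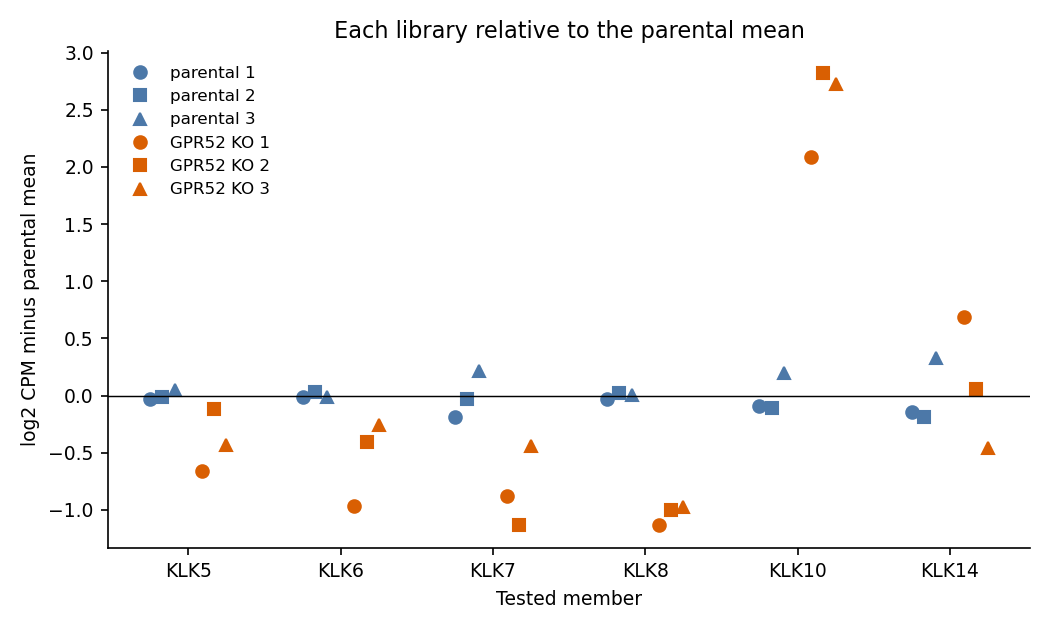
log2 CPM of each library minus the mean of the 3 parental libraries, for the 6 tested KLK genes, 1 point per library. The KO-labelled points of KLK5 to KLK8 lie below 0 and those of KLK10 above 2, and KLK8 has the smallest spread among the KO-labelled libraries, a range of 0.16.

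KLK5 made up most of the family signal in both groups. Summed over the 10 genes, FPKM was 838, 812 and 879 in the parental libraries and 540, 771 and 660 in the KO-labelled ones. All KO-labelled sums were lower than the parental ones. The share of KLK5 in the sum was 80.3% to 80.7% in the parental and 78.7% to 84.5% in the KO-labelled libraries, and that of KLK10 went from 0.356% to 0.424% up to 2.56% to 3.27%.

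Of the kallikreins on the other side of KLK5, none passed the filter on low counts. KLK1, the classical tissue kallikrein, had 2, 1 and 3 counts in the parental libraries and 12, 14 and 8 in the KO-labelled ones, a ratio of 5.92 with a 95% exact binomial interval of 2.46 to 17.3 (counting error only). Its groups did not overlap, and without the filter the edgeR adjusted p was 0.00444, at a level below 0.5 CPM in each library. KLK3, which encodes prostate-specific antigen, had 0 counts against 3, KLK15 0 against 2, and KLK4, an enamel matrix protease, 1 against 4.

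Genes related to kallikreins were counted from lists drawn up by name. The list of inhibitors includes general protease inhibitors, and which of them act on kallikreins was not tested. The shares to set beside these and the later list counts are 40.8% called over all tested genes, 21.0% higher and 19.8% lower. Of protease inhibitors 9 of 17 were tested, 2 higher, 6 lower and 1 not called, with a median log2 fold change of -0.51. The Kunitz inhibitor SPINT2 fell from 361 ± 19.1 to 225 ± 4.98 CPM, and the broad protease inhibitor A2M fell from 232 ± 2.10 to 82.0 ± 26.5 CPM. SERPINA3, an inhibitor of chymotrypsin-like proteases, fell from 0.506 ± 0.0265 to 0.0245 ± 0.0212 CPM by counts. Its FPKM fell from 33.1 ± 0.694 to 0.318 ± 0.217, so the level and the size of the fall differ between the tables, with a quotient of CPM to FPKM of 0.0159 that is below that of KLK9. WFDC2 rose from 0.132 ± 0.0927 to 1.91 ± 0.383 CPM. Adjusted p-values of these 4 were 1.5e-04, 0.00113, 1.5e-04 and 2.2e-04 in the order given (edgeR quasi-likelihood test). SPINK5, the inhibitor best known for this family, named here after its values were seen, was too low to be tested, at 0.0132 ± 0.0229 CPM in the parental group.

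Of the proteases that activate kallikreins or work beside them at the cell surface, 7 of 12 were tested, 2 higher, 3 lower and 2 not called. Urokinase (PLAU) rose from 1.10 ± 0.177 to 27.7 ± 7.45 CPM (edgeR adjusted p = 1.2e-05). The membrane-anchored proteases TMPRSS4, TMPRSS13 and TMPRSS2 fell, with log2 fold changes of -0.82, -0.40 and -0.58 and edgeR adjusted p-values of 5.0e-05, 0.00190 and 0.00382. Matriptase (ST14), named after its values were seen, had 341 ± 27.9 and 346 ± 43.2 CPM and was not called.

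Of substrates and receptors 9 of 14 were tested, 2 higher, 2 lower and 5 not called. The amyloid precursor APP, which KLK6 can cut, fell from 1645 ± 22.7 to 584 ± 66.9 CPM. The protease-activated receptor F2RL1, which KLK5, KLK6 and KLK14 can switch on, fell from 96.6 ± 1.08 to 75.0 ± 1.71 CPM, while its relative F2R rose from 18.9 ± 0.794 to 27.6 ± 1.41 CPM. Desmoglein-2 (DSG2) rose from 98.5 ± 5.69 to 149.5 ± 22.1 CPM. The edgeR adjusted p-values of APP, F2RL1, F2R and DSG2 were 1.7e-05, 0.00233, 0.00158 and 0.00352. Among nuclear receptors for steroids, retinoids and vitamin D, to whose ligands many kallikreins are known to respond, 9 of 12 were tested, none higher, 3 lower and 6 not called. VDR fell from 130.01 ± 0.135 to 83.4 ± 6.68 CPM, ESR1 from 9.38 ± 0.728 to 2.79 ± 1.09 CPM and RXRB from 74.9 ± 2.04 to 61.2 ± 6.38 CPM (edgeR adjusted p of 4.1e-04, 0.00102 and 0.0312). The fall of ESR1 was seen in the counts (ratio 0.297), whereas its FPKM values overlapped between the groups, at 1.33, 1.21 and 1.13 against 0.811, 1.51 and 0.189.

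For the 2 members with the largest changes among those of sufficient level, the genes with the most similar profile over the 6 libraries were sought, by the root mean square difference of log2 CPM centred on each gene's mean. For KLK10 these were FAM83A (0.176), DNAH6 (0.186) and PKIB (0.187), with log2 fold changes of 2.36, 2.87 and 2.96. All were at lower levels than KLK10, with parental means of 0.700, 0.162 and 0.215 CPM. The prior count of 2 in these log2 CPM values shrinks differences at such low levels, so this likeness is in part set by it. For KLK8 they were LAS1L (0.0234), RPS4X (0.0342) and RBM3 (0.0353), which all lie on chromosome X in RefSeq and had log2 fold changes of -1.05, -0.997 and -1.01. The likeness is a description, since the measure follows the difference between the groups.

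Markers of fibroblasts, endothelium and blood cells summed to 8.62 to 10.4 CPM in the parental and 25.2 to 28.9 CPM in the KO-labelled libraries, over the 9 of 11 listed genes analysed by counts here. Of these, 3 could be tested, 1 higher, 1 lower and 1 not called. COL1A1 rose from 7.31 ± 0.881 to 25.5 ± 2.12 CPM, while COL1A2 had 1 count over all 6 libraries. Without COL1A1 the other 8 genes summed to 2.08 to 2.19 CPM in the parental and 1.27 to 1.85 CPM in the KO-labelled libraries. One of these, CD68, had 2 counts in each group. Its FPKM was 4.13 ± 0.370 in the parental and 6.84 ± 3.54 in the KO-labelled libraries, with overlapping groups. The quotient of CPM to FPKM for CD68 was 0.00413, below that of KLK9, so its level, and with it the sum, is uncertain. CDH5, an endothelial cadherin, fell from 1.40 ± 0.208 to 0.535 ± 0.158 CPM (edgeR adjusted p = 0.00430). Their part in the KLK results was not tested.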

How the data were processed

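Polyadenylated RNA of 6 cultures was sequenced from directional libraries, per the labels' protocols. The authors deposited raw counts per gene symbol and FPKM values, 1 column per library. Tools listed in the submitters' processing notes are Cufflinks 2.0.2, STAR 2.4.0f1 and SAMtools 0.1.19, with the build hg19. The counting method, annotation and strand setting were not given in the sources used here. Groups follow the genotype label. From the counts, edgeR 4.0.16 (R 4.3.3) kept genes by filterByExpr (minimum count 10, minimum total count 15), scaled by TMM and applied the quasi-likelihood F test to all 6 libraries without covariates. Adjusted p-values are Benjamini-Hochberg over 17420 genes, with a threshold of 0.05. The SE is the log2 fold change divided by the square root of F. One count was worth 0.0321 to 0.0397 CPM. The steps were tested on simulated data. Alternatives were DESeq2 1.42.0, limma 3.58.1 (voom, and FPKM with pseudocounts of 1 and 0.1), other scalings and filters, and each library left out. The members and lists were chosen with earlier results of these data known. Named list genes are up to 4 called members with the smallest p, and profiles were compared for the 2 members with the largest changes and an average log2 CPM of at least 2 (prior count 2). One listed marker and 1 gene outside the cluster are not reported here.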

Additional observations from a re-analysis of the deposited data

How the results depend on the processing

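KLK10 was called higher and KLK8 lower in all 16 alternative settings, with log2 fold changes of 2.26 to 2.77 and -1.24 to -0.995. KLK7 was called lower in 15 of 16, KLK6 in 9 and KLK5 in 7, and these 3 kept their direction in all 16. The count of members called lower was 2 in place of 4 with limma on log2(FPKM + 1), on log2(FPKM + 0.1), and on log2(FPKM + 0.1) with genes of at least 0.1 FPKM in 3 libraries, the last chosen after seeing the data. With a library left out it was 1 to 4, the lowest without parental 3, while the count called higher stayed at 1 and the calls over all genes ranged from 4879 to 9367. KLK14, not called in any setting that tested it, went from 0.15 to -0.25 without KO-labelled 1 and to 0.42 without KO-labelled 3. The cause was not tested. No paired analysis was possible because the KO-labelled populations carry no replicate number that matches a parental well. Low counts limit KLK9, KLK11, KLK13 and KLK14.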
